A study of Mus musculus with 5 samples.

Results

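Of the 9 genes described here, 8 encode proteins that make, export, sense or break down the signalling lipid sphingosine-1-phosphate (S1P), and Spns1 encodes a lysosomal relative of the exporter Spns2. They were the rows of the expression table whose gene symbol was Spns2, Spns1, Sphk1, Sphk2, S1pr1, S1pr2, S1pr3, Sgpl1 or Sgpp1, 9 of 23185 named genes. The set was built around Spns2, which was selected on its measured difference between the clone groups. That difference is therefore given as a description with no test, and the other 8 genes were added for their place in the pathway or, for Spns1, in the family. RNA came from 5 clones, each grown from a single cell of the mouse osteocytic line Ocy454, with 1 Affymetrix array per clone. Clones 12H and 15H had the highest Sost, the gene of the Wnt inhibitor sclerostin, among 37 clones screened, and clones 4L, 9L and 24L had low Sost. All 5 were untreated, grew for 7 days at 37C in aMEM with serum and antibiotic, and share the parental line, so each group stands for 2 or 3 clones of a single line. The study set clones of high and of low sclerostin output side by side to compare their expression. With 5 arrays, precision is limited.

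S1P is formed when a sphingosine kinase phosphorylates sphingosine inside the cell. Transporters carry it out, and G-protein-coupled receptors on the same or other cells read it. Inside the cell it is either dephosphorylated back to sphingosine or cleaved irreversibly by a lyase. In bone, S1P guides the movement of osteoclast precursors between blood and bone surface and acts on cells of the osteoblast lineage.

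Values are robust multi-array average (RMA) expression on the log2 scale, where 1 unit is a 2-fold difference. They compare clones for 1 gene, not genes with each other, so the reference for dim signal given next is a rough mark. A difference is the mean of the high-Sost clones minus that of the low-Sost clones, with limma's moderated standard error (SE). Adjusted p-values are limma's, over all 23185 genes. As that reference, the 95th percentile of 1354 olfactory and vomeronasal receptor genes, which act mainly in sensory tissue, lay between 3.37 and 3.56 over the clones. Clone 4L stood furthest from the others, with 831 genes (3.58%) at least 2-fold from the median of the other clones, against 348 to 652 genes in the other clones. The array did not separate the groups clearly by Sost, which read 4.08 and 3.92 in 12H and 15H and 3.78, 3.89 and 3.91 in 4L, 9L and 24L. The other 6 osteocyte markers were mixed. Dmp1, Phex and Dkk1 differed by 3.86 (SE 0.58), 3.90 (SE 0.49) and 3.78 (SE 0.52) and Pdpn by -0.92 (SE 0.13), each without overlap, where 16% of all genes had none. Dmp1 and Phex lay under the receptor reference in every low-Sost clone, where a fold understates a difference. Mepe and Fgf23 lay under it in every clone. Adjusted p-values of the 7, Sost included, were 0.572 to 1.0.

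The promoter windows of Spns2, whose level set the clone groups apart, and of its family relative Spns1, whose level did not, are shown for comparison. Both come from RefSeq (GRCm38.p6, minus strand) and run from 250 bases before to 50 bases after a listed start site, at chr11:72474978-72475277 for Spns2 and chr7:126377885-126378184 for Spns1. The Spns2 start lies inside the gene's annotated span and not at its outer end, so other start sites may be used. Capitals mark matches, on either strand, to CCAAT (the CCAAT box) and TGTGGT (a RUNX core).
Spns2: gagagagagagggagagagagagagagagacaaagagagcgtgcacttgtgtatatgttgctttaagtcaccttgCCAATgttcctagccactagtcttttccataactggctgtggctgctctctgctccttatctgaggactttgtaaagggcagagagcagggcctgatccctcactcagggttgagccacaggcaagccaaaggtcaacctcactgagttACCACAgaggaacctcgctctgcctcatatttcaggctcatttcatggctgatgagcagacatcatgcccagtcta
Spns1: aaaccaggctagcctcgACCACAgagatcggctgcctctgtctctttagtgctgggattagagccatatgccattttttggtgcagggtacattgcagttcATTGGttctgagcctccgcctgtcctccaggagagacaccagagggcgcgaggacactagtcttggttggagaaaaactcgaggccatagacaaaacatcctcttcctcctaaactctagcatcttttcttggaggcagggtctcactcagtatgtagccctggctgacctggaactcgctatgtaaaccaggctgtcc
Each window held 1 CCAAT and 1 RUNX match, and neither held GGGCGG, known as the GC box, or TATAAA, known as the TATA box. The matches within a window did not overlap. Of 32851 promoter windows of 300 bases, 37.4% held CCAAT, 16.8% TGTGGT, 35.7% GGGCGG and 13.6% TATAAA. The Spns2 window held 2 CpG dinucleotides and the Spns1 window 7, against a median of 7 over all windows.

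Spns2, the plasma membrane transporter that exports S1P, was the gene of the set that separated the groups. It read 8.44 and 8.22 in clones 12H and 15H, and 5.003, 4.893 and 4.888 in clones 9L, 24L and 4L. The lowest high-Sost clone stood 3.22 above the highest low-Sost clone, a 9.33-fold gap. The mean was 8.33 ± 0.15 (SD, n = 2) in the high-Sost clones and 4.93 ± 0.06 (SD, n = 3) in the low-Sost clones, which is 3.40 or 10.6-fold apart. Within the groups the clones lay close together, with 0.21 between 12H and 15H and 0.11 across the 3 low-Sost clones, and the pooled SD was 0.10. The order of the low-Sost clones therefore has no meaning beyond that spread. Spns2 was chosen on this contrast, so its gap and its spread are a description and test nothing. Because each array holds RNA of a whole culture, more cells with the transcript and more transcript per cell cannot be told apart. Spns2 is also made by endothelial cells. Of 9 endothelial markers, 6, among them Pecam1, Cdh5 and Tek, lay under the receptor reference in every clone. Kdr and Vwf each lay above it in 1 clone, and Egfl7 in every clone. Egfl7 read 4.37 and 3.89 in 12H and 15H, against 4.41, 4.56 and 4.97 in 4L, 9L and 24L. The summed linear level of the 9 endothelial markers was 72.1 to 80.2 in the high-Sost and 81.9 to 90.5 in the low-Sost clones. Their part in the Spns2 difference was not tested. Of 5 measured blood cell markers, 3 lay under the reference in every clone, with summed levels of 54.2 to 54.7 and 45.3 to 50.9. The 5 measured osteoblast markers summed to 8695 to 10660 in the high-Sost and 1405 to 4969 in the low-Sost clones, and their part in the Spns2 difference was not tested.

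**Figure D1:**
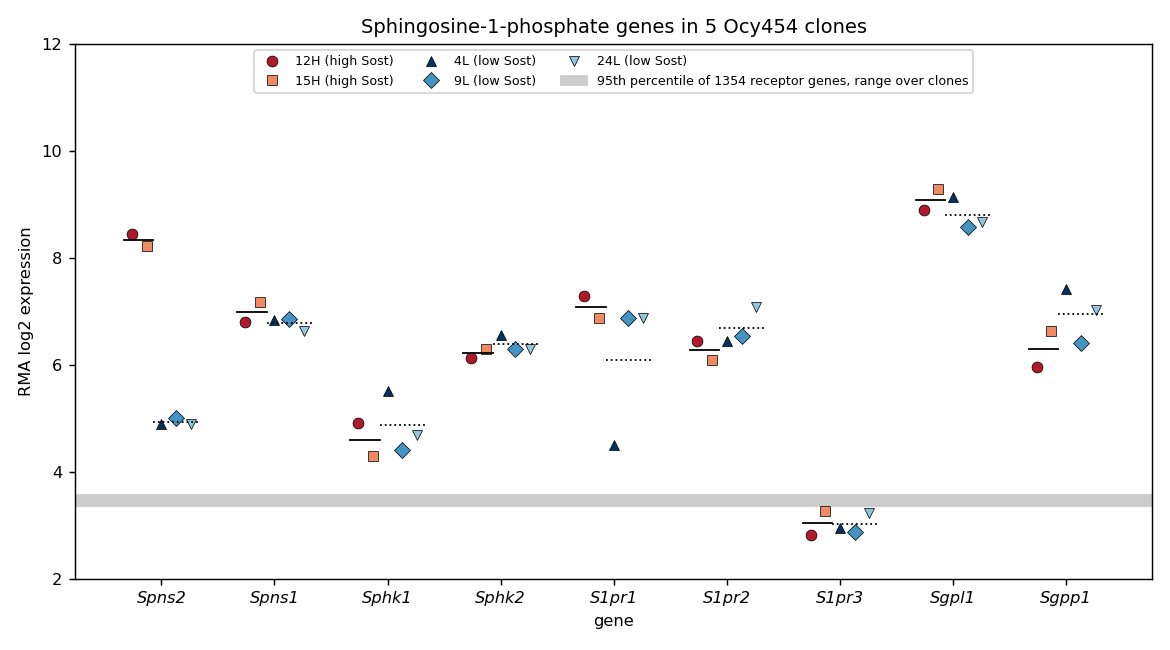
RMA log2 expression (vertical axis) of the 9 genes in each clone, 1 array per clone. Solid lines are high-Sost means and dotted lines low-Sost means, and the grey band is the 95th percentile of receptor genes over the clones. Spns2 is split by group, S1pr1 is low in 4L alone (4.51), and S1pr3 lies under the band in all 5 clones.

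Spns1, which moves lysophospholipids out of lysosomes, read 6.80 in 12H and 7.17 in 15H, and 6.83, 6.86 and 6.64 in 4L, 9L and 24L. The groups overlapped, and the difference of 0.21 (SE 0.15) did not pass (adjusted p = 0.737). Spns3, the third gene of the family and the next measured gene beside Spns2 on chromosome 11, read between 4.22 and 4.49 with a difference of 0.07 (SE 0.10, adjusted p = 0.812). Mfsd2b, the S1P exporter of red blood cells and platelets, lay at 3.18 to 3.26, under the receptor reference in every clone. Of these transporters, Spns2 alone had groups that did not overlap, where 16% of all genes had none. Since Spns2 was chosen on that contrast, nothing is read from this.

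The sphingosine kinases did not differ between the groups beyond the spread of the clones. Sphk1, the cytoplasmic kinase that growth factors activate, read 4.90 in 12H and 4.297 in 15H, and 5.52, 4.42 and 4.69 in 4L, 9L and 24L. Clone 4L was highest and the groups overlapped. The difference was -0.27 (SE 0.44, adjusted p = 0.847), and its sign turned without 4L (0.048) or without 15H (0.029). Sphk2, the kinase found also in the nucleus and mitochondria, kept to 6.14 to 6.56, with 6.30 in 15H, 9L and 24L alike. Its difference was -0.17 (SE 0.12, adjusted p = 0.737).

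Of the receptors, S1pr1 had the widest range, with clone 4L far below the rest. S1pr1, which couples to Gi proteins and controls cell migration, read 7.30 in 12H and 6.88 in 15H, and 6.88 in both 9L and 24L, but 4.51 in 4L. The 3 clones at 6.88 share an identical value, which the RMA summary can produce, so no order is given among them. The difference of 1.00 (SE 0.93) did not pass (adjusted p = 0.778) and was 0.21 (SE 0.18, adjusted p = 0.732) without 4L. Of 5 measured osteoblast markers, 4 were also lowest in 4L. Ibsp, Sp7 and Alpl read 2.24, 2.68 and 6.21 there, against at least 8.35, 7.05 and 10.4 in the other clones, and Col1a1 read 10.35, just under 10.67 in 9L. Bglap was lowest in 24L, at 3.45, with 3.74 in 4L. Their part in the S1pr1 value was not tested. S1pr2, which opposes migration toward S1P, read 6.45 and 6.09 in 12H and 15H and 6.45, 6.54 and 7.08 in 4L, 9L and 24L. Clone 24L was highest, and the difference was -0.42 (SE 0.26, adjusted p = 0.737). S1pr3 lay between 2.81 and 3.27, under the receptor reference in every clone. Its difference of 0.02 (SE 0.20, adjusted p = 1.0) cannot be told from lack of signal. Of the receptors outside the set, S1pr4 read 3.38 to 3.58, near the reference, and S1pr5 4.00 to 4.41, with differences of -0.08 and -0.04.

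The degrading enzymes also overlapped between the groups. Sgpl1, the lyase that cleaves S1P irreversibly, read 8.89 in 12H and 9.28 in 15H, and 9.15, 8.58 and 8.67 in 4L, 9L and 24L. Its difference was 0.29 (SE 0.25, adjusted p = 0.754). Sgpp1, the phosphatase that returns S1P to sphingosine in the endoplasmic reticulum, read 5.96 in 12H and 6.63 in 15H, and 7.42, 6.40 and 7.03 in 4L, 9L and 24L. Clone 12H was lowest and 4L highest, and the difference of -0.65 (SE 0.41) did not pass (adjusted p = 0.737). Its relative Sgpp2 held 3.19 in all 5 clones, under the receptor reference.

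Among all 23185 genes, 0 (0%) reached an adjusted p under 0.05 with limma, while 1340 genes (5.78%) had an unadjusted p under 0.05. That number was 867 in an unmoderated model, 2106 without 12H and 3105 without 15H. Among the 8 genes other than Spns2, 0 had an unadjusted p under 0.05, and 4 had higher and 4 lower means in the high-Sost clones. Spns2 was the 1 of 9 without overlap between the groups, where 16% of all genes had none, and since it was chosen on that contrast nothing is read from this count. With 2 and 3 clones, the smallest p of an exact two-sided permutation test is 0.1.

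The wider pathway held 76 further genes in 4 lists, of which 70 were measured. They had 0 genes passing over all genes, and 6 higher and 3 lower in the high-Sost clones at an unadjusted limma p under 0.05. Over all 23185 genes, 1340 (5.78%) had such a p in either direction. By size, 3 of the 70 (Sgms2, Smpd3 and Lpar3) were higher by 2-fold or more without overlap and 1 (Lpar4) was lower. By the same rule 201 genes of the whole table (0.867%) were higher and 228 (0.983%) lower, which became 348 and 472 without 15H and 302 and 377 without 9L. The 4 lists were chosen with earlier results of these data known, so no excess over all genes is read from their counts. Without 12H the pathway lists had 5 higher, Cerk and Abca1 joining, and 0 lower. With a clone left out, groups without overlap are easier to reach, so those counts do not compare directly with those over all clones. The median difference of the pathway lists was 0.02, against 0.00 over all named genes.

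**Figure D2:**
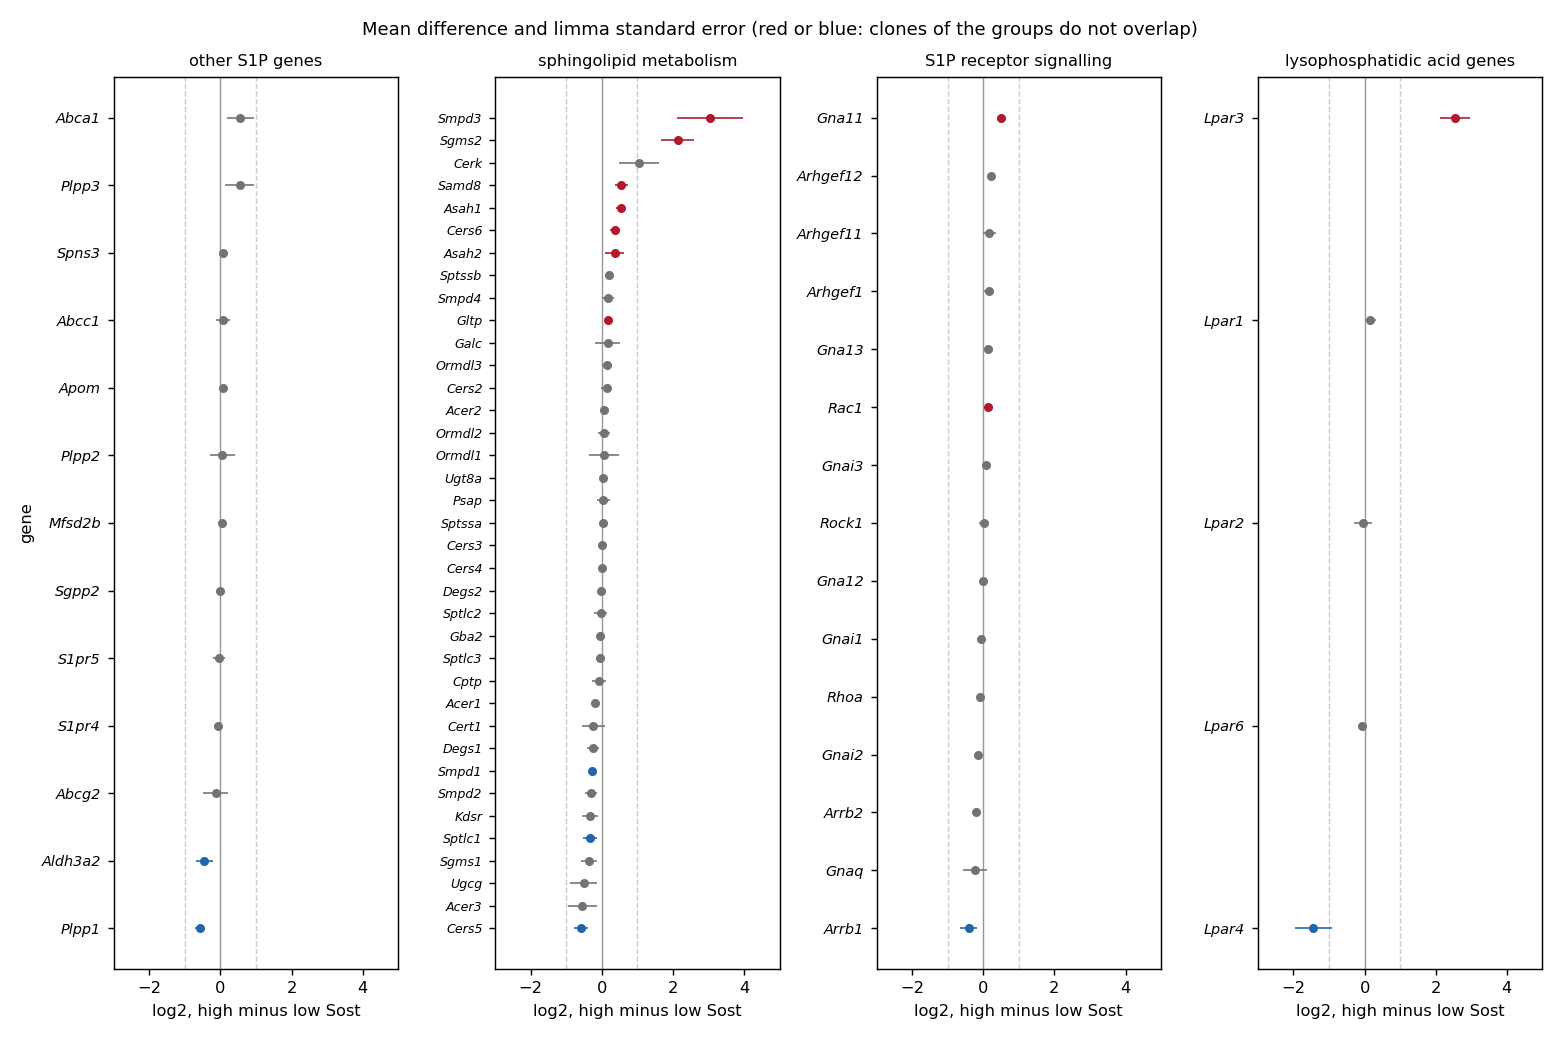
High-Sost minus low-Sost log2 difference (horizontal axis) of the 70 measured genes in 4 lists, with limma's SE as bars. Red and blue points mark genes whose clones do not overlap between the groups, and dashed lines mark 2-fold. Smpd3, Sgms2, Lpar3 and Lpar4 lie beyond 2-fold without overlap.

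Sphingolipid metabolism supplies the ceramide and sphingosine from which S1P is made. Of 37 measured genes of sphingolipid metabolism 2 were at least 2-fold higher and 0 lower without overlap, with a list median of 0.02. By that rule 0.867% of all genes were higher and 0.983% lower. Sgms2, a sphingomyelin synthase of the plasma membrane, read 10.6 in 12H and 9.63 in 15H, against 8.46, 8.01 and 7.49 in 4L, 9L and 24L. Both high-Sost clones stood above every low-Sost clone, by a mean of 2.13 (SE 0.46, 4.37-fold, adjusted p = 0.700). Smpd3, the neutral sphingomyelinase whose loss in mice gives fragile, poorly mineralized bone, read 9.44 in 12H and 7.51 in 15H, against 4.28, 6.10 and 5.90. Its difference was 3.05 (SE 0.93, 8.28-fold, adjusted p = 0.737), with clone 12H far above 15H and 4L far below the other low-Sost clones. It was 2.09 without 12H and 4.01 without 15H. Neither gene passed the test. The related sphingomyelin synthase Sgms1 and sphingomyelinases Smpd1 and Smpd2 had differences of -0.37 (SE 0.22), -0.28 (SE 0.07) and -0.30 (SE 0.17), and of these Smpd1 alone had groups that did not overlap. Other relatives had higher means in the high-Sost clones. Smpd4, a sphingomyelinase, differed by 0.17 (SE 0.17) with overlap, and Samd8 is given below.

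The other genes of this list that are named here were picked with their values known. Cerk, which phosphorylates ceramide, averaged 7.77 against 6.72 (1.05, SE 0.55, adjusted p = 0.737), and clone 9L at 7.61 lay just above 12H at 7.59. Asah1, the lysosomal ceramidase that releases sphingosine, read 9.89 and 9.74 against 9.16, 9.49 and 9.15, a difference of 0.54 (SE 0.14, adjusted p = 0.737). Acer3, another ceramidase, differed by -0.55 (SE 0.40), with 4L highest at 5.76. The ceramide synthases Cers5 and Cers6 differed in opposite directions, by -0.58 (SE 0.19) and 0.38 (SE 0.14), each without overlap. Samd8, a relative of the sphingomyelin synthases, differed by 0.55 (SE 0.19), also without overlap. Sptlc2, a subunit of the enzyme that starts sphingolipid synthesis, kept to 9.07 to 9.61, with a difference of -0.03 (SE 0.19).

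Of the 13 other S1P genes, 0 were 2-fold apart without overlap, where 0.867% of all genes were higher and 0.983% lower by that rule. Plpp1, a lipid phosphate phosphatase that dephosphorylates extracellular S1P and lysophosphatidic acid, read 7.03 and 7.36 against 7.86, 7.66 and 7.83 (-0.59, SE 0.14, adjusted p = 0.737). Aldh3a2, which oxidizes the aldehyde released by the lyase, differed by -0.45 (SE 0.23, adjusted p = 0.737). Of 15 measured receptor signalling genes, also 0 were 2-fold apart without overlap, beside the same shares of all genes. Gna11, a G-protein alpha subunit of the Gq class, read 9.37 and 9.49 against 8.78, 8.93 and 9.10 (0.49, SE 0.12, adjusted p = 0.737), and Arhgef12, a guanine nucleotide exchange factor, differed by 0.22 (SE 0.11, adjusted p = 0.737).

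Lysophosphatidic acid, a lipid related to S1P, has receptors of its own. Of 5 measured genes, 0 passed the test, and by size Lpar3 was higher and Lpar4 lower by 2-fold or more without overlap. By that rule 0.867% of all genes were higher and 0.983% lower. Lpar3 read 6.79 and 6.32 in 12H and 15H, against 4.43, 3.35 and 4.26 in 4L, 9L and 24L (2.54, SE 0.42, 5.83-fold, adjusted p = 0.602). Its level in 9L lay under the receptor reference, where a fold understates a difference. Lpar4 read 4.45 and 5.99, against 6.73, 6.55 and 6.72 (-1.44, SE 0.52, adjusted p = 0.737). Without 12H the difference was -0.68, under 2-fold, and without 15H it was -2.21. Lpar1, the receptor most widely expressed across tissues, kept to 7.32 to 7.79 (0.16, SE 0.16), and Lpar2 and Lpar6 also overlapped between the groups, with differences of -0.05 and -0.08.

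The position of Spns2 on chromosome 11 was not used to choose it. None of its 12 measured neighbours, 6 on each side, was 2-fold apart without overlap, and 0 of 12 had groups without overlap at any size, where 16% of all genes had. Only 10 of the 12 lay above the receptor reference in all clones. Fbxo39 and Ggt6 lay under it in every clone, where a lack of difference cannot be told from lack of signal. Mybbp1a, a nucleolar protein gene whose annotated end overlaps that of Spns2 on the chromosome, read 9.06 and 9.15 against 9.36, 8.75 and 9.29, a difference of -0.03. Differences of the 12 ran from -0.06 to 1.27, with a median of 0.08. Atp2a3, a calcium pump of the endoplasmic reticulum and the sixth measured gene past Spns2, had the widest, at 7.63 and 7.83 against 6.002, 7.92 and 5.45, where clone 9L lay above both high-Sost clones.

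**Figure D3:**
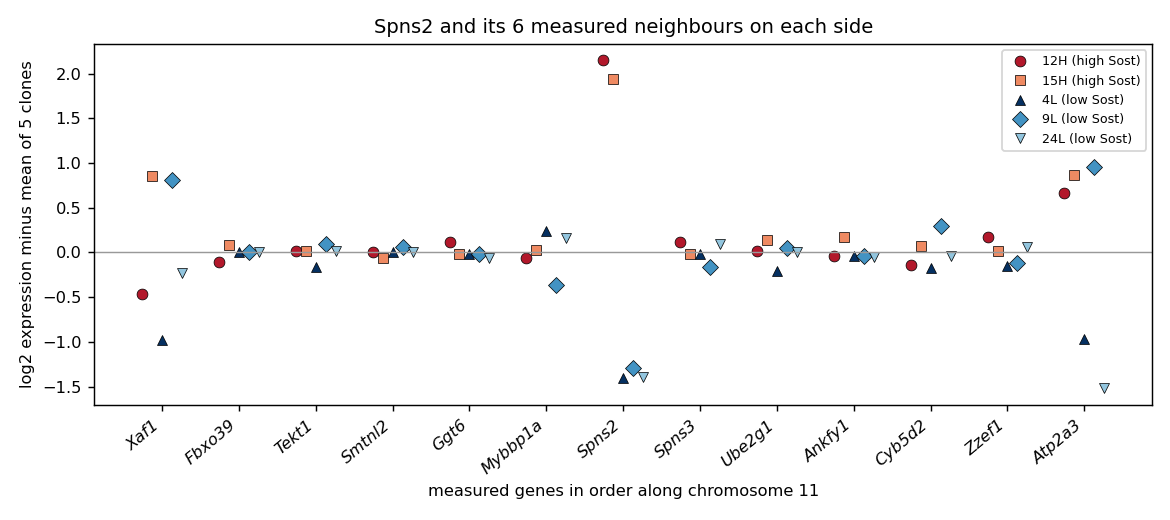
Log2 expression minus the mean of the 5 clones (vertical axis) for Spns2 and 6 measured genes on each side, in order along chromosome 11 and not to scale. The high-Sost clones stand apart from the low-Sost clones at Spns2, while the clones of both groups mix at the 12 neighbours.

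Genes with a profile like that of Spns2 were ranked by the root mean square (RMS) difference of log2 values, each centred on its mean over the 5 clones, among 2443 protein-coding genes with a range of 1 or more. The nearest were Megf10 at an RMS of 0.17, Slc8a3 at 0.36, Slc36a2 at 0.38, Dlx3 at 0.39, Phospho1 at 0.43, Cemip at 0.46, B4galnt3 at 0.47 and Adam12 at 0.52. Megf10, an engulfment receptor, read 7.55 and 7.64 in 12H and 15H, and 3.97, 4.08 and 3.76 in 4L, 9L and 24L. Slc8a3, a sodium-calcium exchanger, read 7.66 and 6.52 against 3.76, 3.69 and 4.18. Slc36a2, a proton-coupled amino acid transporter, read 7.64 and 7.48 against 4.10, 4.95 and 3.67. Dlx3, a homeobox factor of the osteoblast lineage, and Phospho1, a phosphatase of mineral formation, averaged 7.67 and 9.98 in the high-Sost against 4.68 and 7.03 in the low-Sost clones. Cemip, which takes part in hyaluronan breakdown, averaged 6.49 against 3.61, B4galnt3, a glycosyltransferase, 6.73 against 3.54, and Adam12, a metalloprotease, 6.44 against 3.87. The level of Cemip in 4L, at 2.96, lay under the receptor reference. Slc36a2, Dlx3 and Phospho1 lie on chromosome 11 like Spns2, but are not among its 12 neighbours. With 5 clones many genes can share such a profile, and a ranking by correlation shared 1 of these 8 genes.

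The genes nearest to the mirror image of Spns2 were Gfra2 at an RMS of 0.48, Casp4 at 0.52, Slc38a1 at 0.53 and Plk2 at 0.54. Gfra2, a co-receptor for the growth factor neurturin, read 2.98 and 3.54 in 12H and 15H, against 5.65, 6.87 and 6.73. Both high-Sost levels lay under the receptor reference, where a fold understates a difference. Slc38a1, a glutamine transporter, averaged 4.72 against 7.99, Plk2, a polo-like kinase, 4.67 against 8.503, and Casp4, an inflammatory caspase, 4.87 against 7.27. Because these genes were picked for their profile, their differences carry no test.

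**Figure D4:**
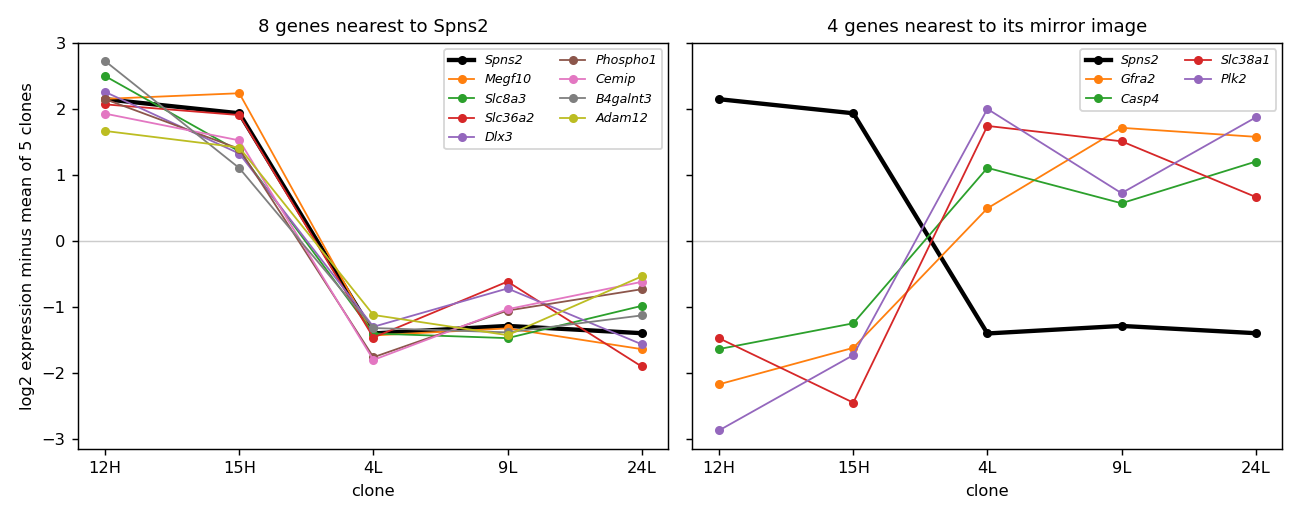
Log2 expression minus the mean of the 5 clones (vertical axis) for Spns2 (black) with the 8 genes nearest to its profile (left) and the 4 nearest to its mirror image (right), by clone. Megf10 runs closest to Spns2, at an RMS difference of 0.17.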

How the data were processed

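RNA of 5 clones was labelled with biotin and hybridized to 1 Affymetrix array each, per the labels' protocols. The authors deposited log2 expression per probe set. RMA, affy 1.36.1 and R 2.15.1 are named in the submitters' processing notes, with no role given. The chip definition, filters and build are not named there, and no scan date or slide is given in the sources used here. RMA brings arrays to 1 distribution, so a shift shared by most genes is removed, and its median-based summary repeats values (55.9% of named genes hold a repeat). No 2 arrays were identical, and array medians over named genes lay between 4.13 and 4.16.

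Of 25206 rows, 23185 had 1 gene in the platform table, 0 had several and 2021 had none and were not tested. All 23185 matched a RefSeq gene table (GRCm38.p6) by Entrez number, which gave names, chromosomes and gene order only.

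Groups followed the Sost label. The test was that of limma 3.58.1, run in R 4.3.3 (lmFit, eBayes without trend; 3 residual and 0.701 prior degrees of freedom), two-sided, with Benjamini-Hochberg adjustment and a threshold of 0.05. The labels name clones and no separate cultures of a clone, so p-values measure the spread between clones. Fits were tested on simulated data. Figures used matplotlib 3.10.9.

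The members and lists were chosen with earlier results of these data known. Named were all members, list genes at least 2-fold apart without overlap and with a mean above the receptor reference or else the 2 of smallest p per list, 12 neighbours, and the 8 genes most like Spns2 and 4 most like its mirror image. Predicted and clone-named genes, sensory receptors and genes that code for no protein stayed out of that ranking. Other named genes were picked with their values known. Some genes of the pathway and marker lists are not analysed here. Chondrocyte markers had summed levels of 244 to 310 in high-Sost and 192 to 278 in low-Sost clones and adipocyte markers 39.7 to 44.7 and 40.9 to 45.3. Such sums add linear levels of different probe sets and follow the brightest.

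Alternatives were dropping 30% of genes by lowest mean, equal array medians, a second quantile normalization, a mean-variance trend (plain or robust), array weights, no moderation, including unnamed rows, leaving out each clone, and for the likeness ranking a correlation or a range of 2 or more.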

Additional observations from a re-analysis of the deposited data

How the results depend on the processing

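The difference of Spns2 stayed between 3.30 (without 12H) and 3.51 (without 15H) in the 13 alternatives. Equal array medians let 2 genes pass, Megf10 and Spns2, and since Spns2 was chosen on this contrast that call supports nothing. In the other 12 alternatives 0 genes passed, and 0 of the 8 other members passed in any. The count with an unadjusted p under 0.05 was 867 in the unmoderated model and ran from 1273 to 3105 with a clone left out. Genes at least 2-fold apart without overlap numbered 163 to 348 higher and 212 to 472 lower with a clone left out, and the cause was not tested. Of the pathway lists, 3 to 5 genes were higher and 0 to 1 lower. Sgms2, Smpd3 and Lpar3 were among them in every alternative, Cerk joined with equal medians, with a second quantile normalization, without 9L and without 12H, and Abca1 joined and Lpar4 left without 12H. Of the members, 2 near 0 changed sign. Sphk1 was at 0.048 without 4L and 0.029 without 15H, its leave-out values ran from -0.58 to 0.048, and S1pr3 was at -0.012 without 4L, -0.050 without 9L and -0.21 without 15H, up to 0.25 without 12H. The 8 genes most like Spns2 each had a range of at least 3.09. A filter at a range of 2 could therefore not change them and tests nothing. A ranking by correlation shared 1 of the 8. Without 12H or 15H the spread of the lone high-Sost clone is taken from the low-Sost group. With any clone left out, groups without overlap are easier to reach. Counts by that rule therefore do not compare directly with those over all 5 clones.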
